A study of Arabidopsis thaliana with 12 samples.

Results

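Leaves of an Arabidopsis thaliana line labelled as an anac017 mutant were compared with leaves of the Columbia wild type, with 3 RNA libraries in each group, 6 of the 12 libraries of the series. By the labels, the line is a T-DNA knockout made in the Columbia background, wild type is Columbia itself, all leaves were 18 days old, growth was mostly under long days, and no treatment is named. The other 6 libraries, 3 each of lines labelled anac082 and anac090, enter only through the shared estimate of the spread and as levels set beside a result. Where the insertion lies in the gene is not stated. The labels do not tell whether the 3 libraries per group are separate plants or cultures, so a p-value speaks only of spread among these libraries, part of which may be technical.

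ANAC017 is a NAC transcription factor held in the membrane of the endoplasmic reticulum by a domain at its end. On mitochondrial stress it is released, moves to the nucleus and switches on genes for alternative respiration and detoxification, many of which carry a short promoter sequence called the mitochondrial dysfunction motif. Leaf ageing, salicylic acid (SA) defence and growth hormones are linked to this response.

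Levels are given as deposited, on a log2 scale with a pseudocount of 1, and had been made equal in distribution between libraries, so the depth is unknown and a change in total RNA cannot be seen. Differences are libraries labelled anac017 minus wild type on that log2 scale, ± the standard error of the limma fit. Folds use the same scale, on which changes of weakly expressed genes come out too small. A gene rose or fell where the adjusted p was below 0.05 over the 16817 genes tested. By this test (limma, Benjamini-Hochberg adjustment), 248 genes rose (1.47% of those tested) and 103 fell (0.612%), 351 in all (2.09%). In leaf RNA, fewer cells of a type and less RNA per cell cannot be told apart. For all 351 the libraries of each group lay on separate sides, as for 6995 of the genes tested (41.6%), 19% higher and 22.6% lower. The median difference was 0.77 among the genes that rose and, in size, 0.76 among those that fell, and 74 rose and 28 fell by at least 1 on the log2 scale. The median over all genes was -0.02. Same-numbered libraries of both groups deviated together, and a fit that blocks on replicate number called 691 genes higher (4.11%) and 513 lower (3.05%), 7.16% in all. Fitted on the 6 libraries alone, 1731 were higher (10.3%) and 1881 lower (11.2%). On the first principal component (51% of the variance) the libraries labelled anac017 lay at 9.31, 9.97 and 21.6, against -35.3, -35.6 and -29.7 in wild type. Libraries of the other lines stood apart there, anac082 replicate 1 at -27 and anac090 replicate 3 at 74.1, and without both 1762 genes were higher and 1888 lower.

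**Figure D1:**
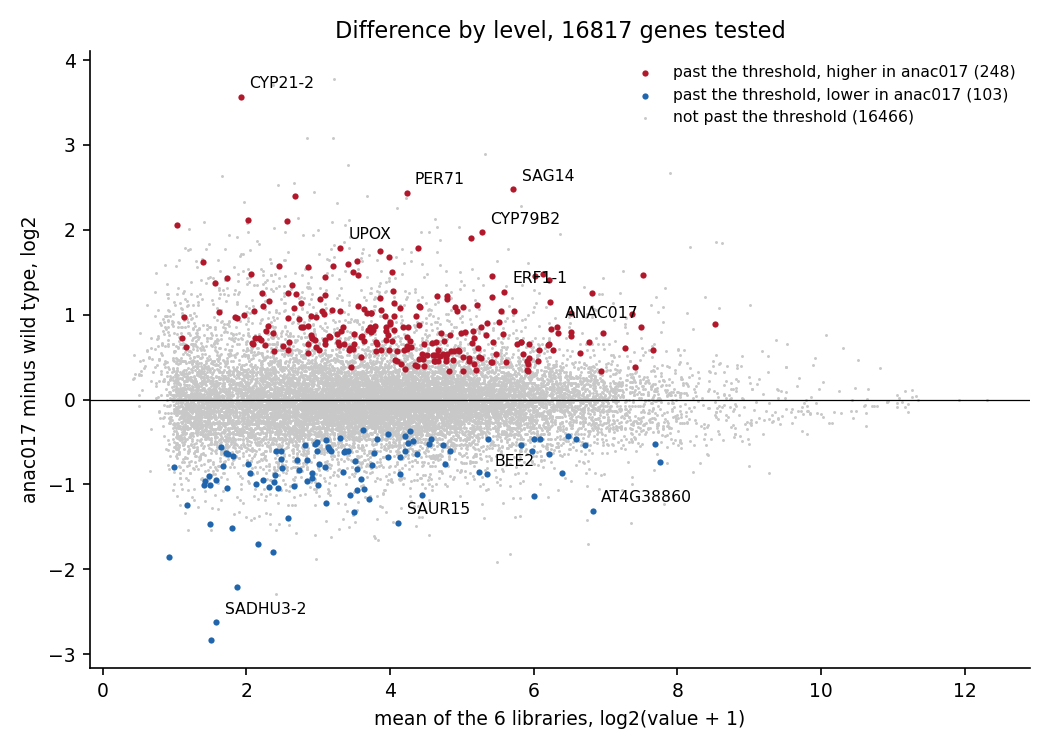
Difference between the libraries labelled anac017 and wild type (vertical axis, log2) against the mean level of the 6 libraries (horizontal axis, log2), 1 point per gene tested. The 248 genes that rose are in red and the 103 that fell in blue. SAG14, PER71 and CYP79B2 lie high among genes of middle level, and ERF1-1 lies above 1.

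The counts moved with single libraries. They were 131 higher and 21 lower without wild type replicate 1, 45 and 5 without replicate 2, and 51 and 8 without replicate 3. Without the library labelled anac017 replicate 1 they were 46 and 3, without replicate 2 81 and 16, and without replicate 3 49 and 4. Libraries of the other lines only set the spread. Dropping anac082 replicate 2 gave 188 and 50, and its replicate 3 gave 150 and 31. Dropping anac090 replicate 1 gave 176 and 52, its replicate 2 gave 885 and 768, and its replicate 3 gave 1410 and 1547. No called gene turned its direction in any of these fits, but this was fixed beforehand. With groups on separate sides, leaving out 1 library cannot reverse a difference, and libraries of the other lines do not enter it. A set of 37 genes passed in the fit described and in all 22 alternatives, 36 of them higher and 1 lower. The count of alternatives under which a gene still passed is given below as "22 of 22 alternatives".

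ANAC017 mRNA itself stood higher in the libraries that carry the mutant label. ANAC017 (AT1G34190, chromosome 1, 12451451 to 12454142, TAIR10) stood at 6.68, 6.84 and 6.72 in the libraries labelled anac017, against 5.99, 5.88 and 5.79 in wild type. It rose 1.81-fold (0.86 ± 0.14, adjusted p = 0.0152), and the call was lost on leaving out wild type replicate 2 (adjusted p = 0.0716) or 3 (0.0807) or the library labelled anac017 replicate 1 (0.0592), 2 (0.0629) or 3 (0.0692). The files do not show which part of the transcript was read, and directions below are those of the labelled libraries. Of the 4 other tested genes within 10 kb, none passed. The largest difference among them was that of the next gene, NAC016, a NAC factor of leaf ageing, at 3.16, 2.77 and 3.34 in the libraries labelled anac017 and 1.88, 1.91 and 2.05 in wild type (1.14 ± 0.29, adjusted p = 0.0644, and 0.0183 with the block). SERK2, a receptor kinase gene, differed by 0.46 ± 0.14 (0.0907, block 0.0458), AT1G34200 by 0.19 ± 0.08 and AT1G34220 by 0.05 ± 0.09.

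Genes of mRNA surveillance were among those that rose. Nonsense-mediated decay destroys mRNAs whose stop codon lies well before the last exon junction or before a long untranslated end. The helicase UPF1 and its partners UPF2 and UPF3 recognise such a stop, the exon junction proteins Y14, MAGO and BARENTSZ mark the junction, and the release factors ERF1 and ERF3 end translation. In plants, mRNAs of ERF1-1 are themselves known to be destroyed by the pathway. This list of 10 genes was drawn up after values had been seen, so its counts are a description only. Of the 10, 4 rose, 0 fell and 6 did not pass (40% against 1.47% of all genes), with a median of 0.21. With the block and on the 6 libraries alone 4 also passed (4.11% and 10.3% of all genes were higher there). Leaving out single libraries gave 1 to 4.

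ERF1-1 (AT5G47880, chromosome 5, 19386100 to 19388562), which encodes the protein that reads stop codons, stood at 6.13, 6.23 and 6.31 in the libraries labelled anac017 and 4.79, 5.08 and 5.01 in wild type. It rose 2.40-fold (1.27 ± 0.10, adjusted p = 1.8e-04, 22 of 22 alternatives). In the 6 libraries of the other lines it lay between 5.0 and 5.24, so the libraries labelled anac017 stood above all 9 others.

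The other rises in the list were smaller. UPF3 was at 5.25, 5.29 and 5.27 in the libraries labelled anac017, against 4.79, 4.71 and 4.80 in wild type (0.50 ± 0.09, adjusted p = 0.0277). BARENTSZ was at 5.32, 5.39 and 5.36 in anac017-labelled libraries, against 4.92, 4.89 and 4.78 in wild type (0.49 ± 0.08, adjusted p = 0.0190). UPF1 was at 5.63, 5.68 and 5.62 in anac017-labelled libraries, against 5.26, 5.17 and 5.17 in wild type (0.44 ± 0.07, adjusted p = 0.0196). For all 4 genes the libraries labelled anac017 lay above the 9 others. The ranges of the 2 groups overlapped for the 6 members that did not pass: ERF3 differed by 0.26 ± 0.11, ERF1-2 by 0.16 ± 0.11, UPF2 by 0.04 ± 0.10, Y14 by -0.01 ± 0.09, MAGO by -0.02 ± 0.10 and ERF1-3 by -0.09 ± 0.11.

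**Figure D2:**
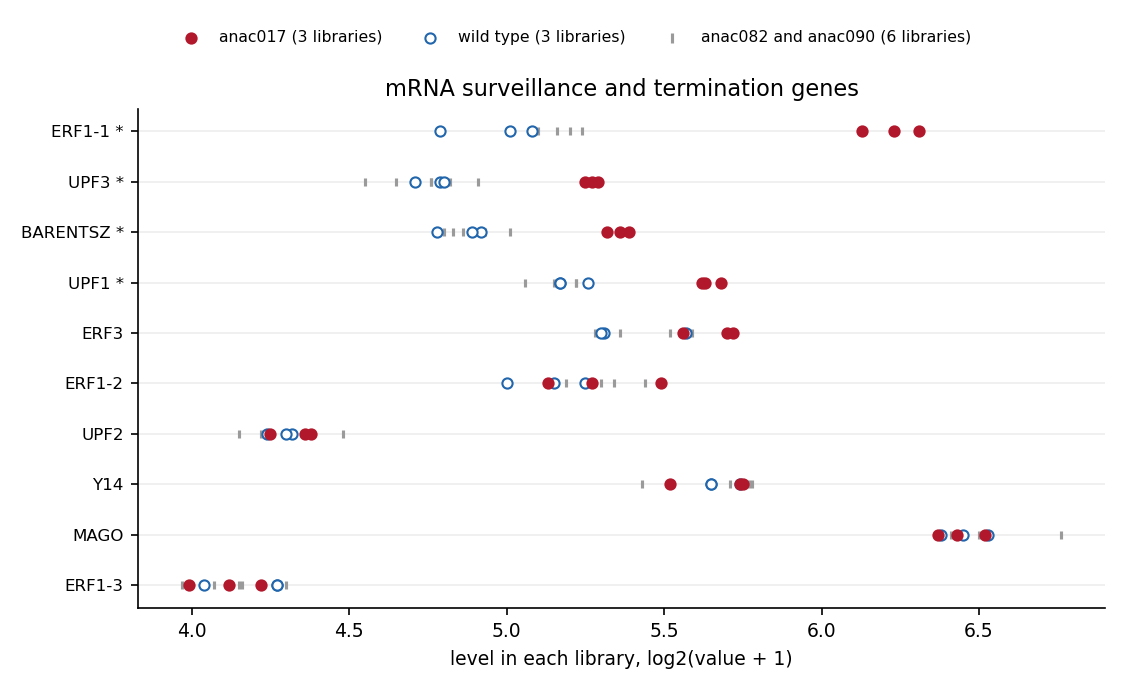
Level of 10 genes of mRNA surveillance and translation termination in each library (horizontal axis, log2), with libraries labelled anac017 in filled red, wild type in open blue and the libraries of the other 2 lines as grey ticks. An asterisk marks genes past the threshold. In the upper 4 rows the red points lie to the right of all others, and in the lower 6 rows they mix with them.

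An exon junction at least 50 nucleotides after the stop codon is one feature that marks an mRNA for this pathway, and it was read from the RefSeq annotation of TAIR10.1. BARENTSZ has it in 2 of 2 annotated mRNAs, with up to 118 nucleotides from the stop codon to the last junction, and ERF1-1 in 1 of 2 with up to 130, and the other 8 members have none. Among genes that rose, 39 of the 215 with a coding mRNA have such an mRNA (18.1%), against 7 of 102 that fell (6.86%) and 1693 of 16330 tested (10.4%). Genes with more annotated mRNAs have more chances to hold one: the mean was 2.16 mRNAs per gene that rose and 2.00 over all tested. Among genes with 1 annotated mRNA, 4 of 101 that rose had the feature (3.96%), against 54 of 8277 tested (0.652%). These shares were chosen after values were seen and are not tested.

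Some transcripts that code for no known protein also rose. The table describes 302 entries as "other RNA", of which 154 were tested, 18 rose (11.7%, against 1.47% of all genes) and 0 fell. The median was 0.20, and with the block 29 were higher and 1 lower (4.11% and 3.05% of all genes). Leaving out single libraries gave 8 to 30 higher and 0 to 1 lower. By the RefSeq classes, 11 of 124 lncRNA genes (8.87%) and 9 of 80 ncRNA genes (11.2%) rose and none of either fell, against 215 higher (1.32%) and 102 lower (0.625%) of 16331 protein-coding genes. These classes, and those of transposable elements and upstream frames below, were chosen after values were seen. AT1G69252 (chromosome 1, 26036570 to 26037659) was at 7.44, 7.42 and 7.45 in the libraries labelled anac017, against 6.32, 6.13 and 6.06 in wild type (1.26 ± 0.15, adjusted p = 0.00341). AT2G45023 (chromosome 2, 18570156 to 18572173) was at 4.30, 4.29 and 4.27 in anac017-labelled libraries, against 3.04, 2.76 and 2.66 in wild type (1.47 ± 0.11, adjusted p = 1.8e-04). AT1G22403 (chromosome 1, 7908568 to 7909708) was at 4.02, 3.66 and 3.77 in anac017-labelled libraries, against 2.55, 2.33 and 2.22 in wild type (1.45 ± 0.13, adjusted p = 4.1e-04). Each of these 3 passed under 22 of 22 alternatives and lay above all 9 other libraries. Further members were AT3G27990 (1.06 ± 0.13) and AT1G07728 (0.69 ± 0.09), both with 22 of 22 alternatives. AT3G29644 (1.08 ± 0.12) was different: its levels of 2.98 to 3.33 in the other 2 lines lay in the range of its 3.08 to 3.37 in the libraries labelled anac017, apart from 1 library, against 1.94 to 2.26 in wild type.

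Of 3900 transposable element genes, 84 were tested, 7 rose (8.33%, against 1.47% of all genes) and 1 fell (1.19%, against 0.612%). With the block 11 were higher and 3 lower (4.11% and 3.05% of all genes). Leaving out single libraries gave 1 to 14 higher and 1 to 4 lower. The neighbours AT2G13975 (chromosome 2, 5864884 to 5865600) and AT2G13970 (5862536 to 5864801) both rose. AT2G13975 stood at 5.54, 5.31 and 5.37 in the libraries labelled anac017 and 4.30, 4.07 and 4.17 in wild type (1.22 ± 0.10, adjusted p = 1.8e-04, 22 of 22 alternatives). AT2G13970 stood at 4.17, 4.14 and 4.09 in anac017-labelled libraries, against 3.43, 3.12 and 3.31 in wild type (0.85 ± 0.12, adjusted p = 0.00842). AT2G24760 (0.77 ± 0.12), AT5G28622 (0.63 ± 0.12) and AT1G35115 (0.57 ± 0.09) rose as well. The element that fell, SADHU3-2, was at 0.55, 0.10 and 0.16 in anac017-labelled libraries, against 3.06, 2.79 and 2.84 in wild type (-2.62 ± 0.22, adjusted p = 2.8e-04), and lay at 0.21 to 1.59 in the other lines.

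Of 34 tested entries for conserved upstream open reading frames, short peptides coded ahead of a main protein, 2 rose (5.88%, against 1.47% of all genes) and 0 fell, with a median of 0.32. With the block 5 were higher and 1 lower (4.11% and 3.05% of all genes), and leaving out single libraries gave 1 to 8 higher and 0 to 1 lower. CPuORF19 stood at 6.96, 6.88 and 6.90 in the libraries labelled anac017, against 6.09, 6.05 and 6.22 in wild type (0.80 ± 0.09, adjusted p = 0.00195, 22 of 22 alternatives). CPuORF14 stood at 5.24, 5.30 and 5.17 in anac017-labelled libraries, against 4.61, 4.72 and 4.68 in wild type (0.57 ± 0.09, adjusted p = 0.0135). Each entry covers a locus of the table as a whole (chromosome 1, 13898210 to 13900831, and chromosome 5, 21327712 to 21330136), so reads of the upstream and the main frame cannot be told apart.

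Some genes of the mitochondrial dysfunction response rose. Of 17 listed genes, 13 were tested: 4 rose (30.8%, against 1.47% of all genes), 0 fell and 9 did not pass. The median was 0.87 and all 13 differences were above 0. With the block 7 passed (4.11% of all genes were higher there), and on the 6 libraries alone 10 (10.3% of all genes). Leaving out single libraries gave 0 to 10. UPOX (AT2G21640), a mitochondrial protein that marks oxidative stress, was at 4.34, 4.42 and 3.84 in the libraries labelled anac017, against 2.45, 2.21 and 2.58 in wild type (1.79 ± 0.34, adjusted p = 0.0284). The glucosyltransferase UGT74E2 was at 1.66, 2.77 and 2.19 in anac017-labelled libraries, against 0.76, 0.41 and 0.58 in wild type (1.62 ± 0.27, adjusted p = 0.0196). The transporter ABCB4 was at 3.27, 3.26 and 3.34 in anac017-labelled libraries, against 2.68, 2.37 and 2.23 in wild type (0.87 ± 0.18, adjusted p = 0.0375). NAC013, a related NAC factor held in membranes, was at 3.71, 3.70 and 3.77 in anac017-labelled libraries, against 3.02, 2.71 and 3.03 in wild type (0.81 ± 0.16, adjusted p = 0.0314). For these 4 genes the libraries labelled anac017 lay above all 9 others.

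The respiratory members of the list split. AOX1A, the alternative oxidase that ANAC017 is best known to induce, stood at 5.42, 5.76 and 5.49 in the libraries labelled anac017, against 5.48, 5.49 and 5.67 in wild type, with overlapping groups (0.01 ± 0.16, adjusted p = 0.984). The second alternative oxidase AOX1D differed by 1.43 ± 0.71 (adjusted p = 0.225, and 0.0165 on the 6 libraries alone). The alternative NADH dehydrogenases NDA2 (0.75 ± 0.26, adjusted p = 0.122) and NDB2 (0.66 ± 0.29, adjusted p = 0.186) had separate groups and passed on the 6 libraries alone (0.00197 and 0.00380). GSTU24, a glutathione transferase (1.48 ± 0.34, adjusted p = 0.0525), the mitochondrial membrane protein BCS1 (1.27 ± 0.31, 0.0570) and the sulfotransferase SOT12 (0.51 ± 0.12, 0.0535) passed with the block (0.0248, 0.0387 and 0.0451). The carrier DIC2 differed by 1.05 ± 0.74, led by replicate 1 at 5.57, against 3.61 in wild type replicate 1. TIM17-1, of the import machinery, differed by 0.12 ± 0.29.

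**Figure D3:**
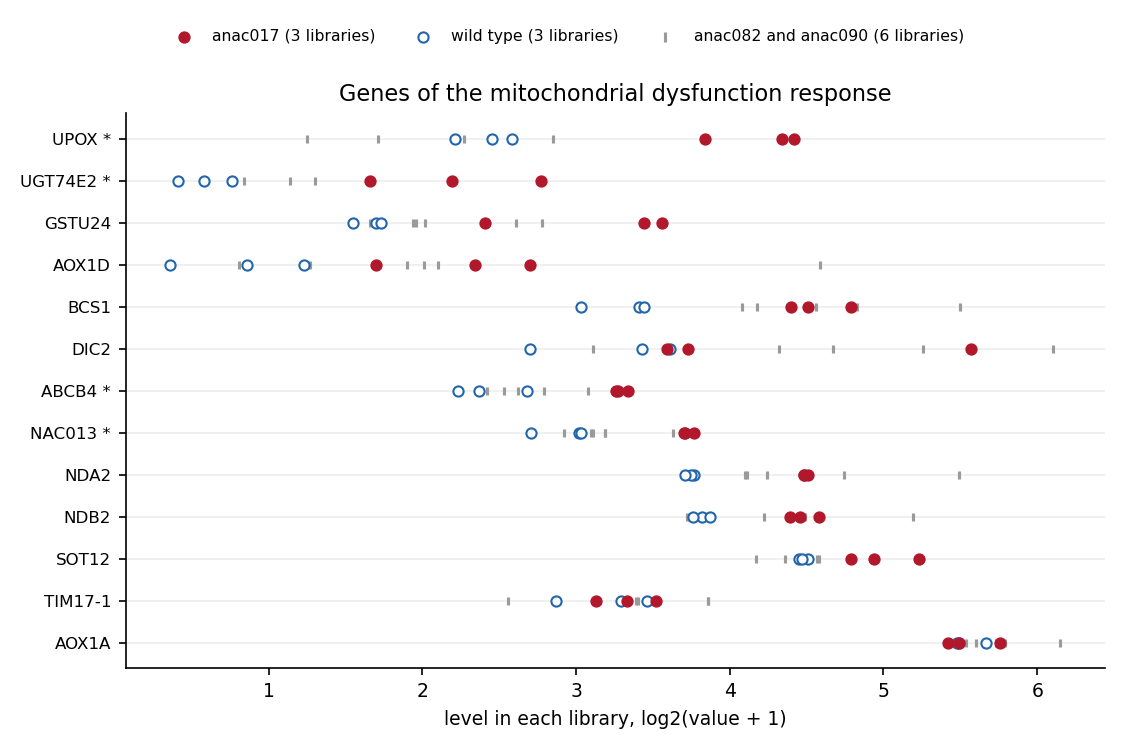
Level, in each library, of 13 mitochondrial dysfunction genes (horizontal axis, log2), with libraries labelled anac017 in filled red, wild type in open blue and the other 2 lines as grey ticks. An asterisk marks genes past the threshold. For UPOX, UGT74E2, ABCB4 and NAC013 the red points stand clear of all others, and for AOX1A and TIM17-1 the groups overlap.

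The mitochondrial dysfunction motif was searched for on both strands of the 300 bases just before each annotated gene start, in the RefSeq TAIR10.1 sequence. It was found in 3 of the 17 listed genes (17.6%), in 6 of 245 promoters of genes that rose (2.45%), in 1 of 103 of genes that fell (0.971%) and in 254 of 16682 tested (1.52%). The window is shown for the 2 tested list members that hold it, since it is the sequence ANAC017 is known to bind. Capitals mark the motif, and both windows are on the plus strand, chr2:9254078-9254377 for UPOX and chr4:2572127-2572426 for NDB2.
UPOX: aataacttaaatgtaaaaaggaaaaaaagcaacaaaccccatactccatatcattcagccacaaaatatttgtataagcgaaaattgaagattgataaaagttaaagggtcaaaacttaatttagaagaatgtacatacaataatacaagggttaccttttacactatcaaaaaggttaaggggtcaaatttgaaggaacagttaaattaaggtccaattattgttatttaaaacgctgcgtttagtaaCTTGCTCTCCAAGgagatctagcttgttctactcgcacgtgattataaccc
NDB2: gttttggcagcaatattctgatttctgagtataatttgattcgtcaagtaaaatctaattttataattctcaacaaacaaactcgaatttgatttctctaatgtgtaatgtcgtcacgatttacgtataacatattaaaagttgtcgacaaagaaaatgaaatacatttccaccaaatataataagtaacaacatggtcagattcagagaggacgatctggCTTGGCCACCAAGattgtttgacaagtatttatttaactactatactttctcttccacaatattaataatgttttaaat
UPOX rose and NDB2 did not pass, so the letters were present in a member of each kind. The W-box core TTGAC, bound by WRKY factors, was in 54.7% of promoters of genes that rose, 51.5% of those that fell and 50% of all. The TGA site TGACG was in 25.7%, 26.2% and 22.2%, the G-box CACGTG in 8.98%, 9.71% and 8.06%, and the evening element AAAATATCT in 3.27%, 1.94% and 3.04% of the same classes.

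Among NAC factors held in membranes, only NAC013 passed besides the targeted gene. Of 11 tested, ANAC017 and NAC013 rose (18.2%, against 1.47% of all genes), 0 fell, and the median was 0.19. NAC016, the neighbour of ANAC017 given above, had the largest difference of the list (1.14 ± 0.29, adjusted p = 0.0644, block 0.0183). NAC053, of the response to damaged proteins, stood at 3.95, 3.89 and 4.21 in the libraries labelled anac017, against 3.05, 3.17 and 3.17 in wild type (0.89 ± 0.32, adjusted p = 0.125, and 0.00331 on the 6 libraries alone). NAC062 (0.31 ± 0.16), NAC089 (0.19 ± 0.20), NAC068 (0.10 ± 0.20), NAC078 (0.09 ± 0.11) and NAC091 (0.08 ± 0.11) did not pass, and NAC069 (-0.18 ± 0.10) and NAC014 (-0.29 ± 0.10) had negative differences.

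Most genes of the salicylic acid pathway had positive differences that did not pass over all 12 libraries. The 8 synthesis genes had a median of 1.24. All 8 had separate groups, higher in the libraries labelled anac017, as did 19% of all genes tested. Of the 8, 0 passed, 2 passed with the block (4.11% of all genes were higher there) and 8 on the 6 libraries alone (10.3%). Leaving out single libraries gave 0 to 6. PAD4, a regulator of SA build-up, was at 6.59, 6.62 and 6.58 in the libraries labelled anac017, against 5.46, 5.44 and 5.47 in wild type (1.14 ± 0.28, adjusted p = 0.0606, and 0.0451 with the block). The groups stood clear of each other with little spread inside them, while the library labelled anac090 replicate 3 lay at 6.89 and replicate 2 at 5.46. SARD1, an activator of the synthesis gene ICS1, was at 5.05, 5.23 and 5.48 in anac017-labelled libraries, against 3.46, 3.81 and 4.06 in wild type (1.48 ± 0.40, adjusted p = 0.0743, and 0.0319 with the block). ICS1 itself, at 5.19, 5.45 and 5.50 in anac017-labelled libraries, against 3.81, 4.61 and 4.57 in wild type, differed by 1.05 ± 0.47 (adjusted p = 0.189), and it lay at 4.32 to 5.70 in the libraries labelled anac082 and 4.85 to 6.81 in those labelled anac090. The transporter EDS5 differed by 1.42 ± 0.52 (0.133) and PBS3, which conjugates the precursor, by 1.39 ± 0.60 (0.182). The 4 genes of N-hydroxypipecolic acid, a signal of systemic resistance, had a median of 1.63 and 0 passed, and leaving out single libraries gave 0 to 2. ALD1, its first enzyme, had overlapping groups, at 3.00, 4.83 and 3.88 in anac017-labelled libraries, against 0.52, 3.15 and 2.21 in wild type (1.94 ± 0.95, adjusted p = 0.223). FMO1, its last enzyme, differed by 1.83 ± 0.88 (0.215) and SARD4, the reductase, by 1.05 ± 0.40 (0.142).

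Of 10 SA response genes, 2 rose (20%, against 1.47% of all genes) and 0 fell, with a median of 1.79. All 10 had separate groups, higher in the libraries labelled anac017, as did 19% of all genes tested. With the block 5 passed (4.11% of all genes were higher there), and on the 6 libraries alone 10 (10.3% of all genes). Leaving out single libraries gave 0 to 10. GRXC9, a glutaredoxin that acts with TGA factors, was at 3.48, 4.04 and 3.32 in the libraries labelled anac017, against 1.46, 1.62 and 1.47 in wild type (2.10 ± 0.39, adjusted p = 0.0274). BG3, a glucanase of the defence response, was at 4.89, 5.17 and 5.80 in anac017-labelled libraries, against 3.02, 3.61 and 3.86 in wild type (1.79 ± 0.40, adjusted p = 0.0496). PR1, the classic marker of the response, was at 8.67, 9.11 and 9.91 in anac017-labelled libraries, against 5.57, 7.13 and 6.98 in wild type (2.67 ± 0.79, adjusted p = 0.0873, and 0.0352 with the block). Replicate 1 was the lowest library of both groups for PR1. In the libraries labelled anac090, GRXC9 lay at 3.67 to 4.74, BG3 at 4.79 to 6.39 and PR1 at 8.93 to 11.35. In those labelled anac082, GRXC9 lay at 2.17 to 3.86, BG3 at 3.43 to 4.33 and PR1 at 6.66 to 9.52. High levels of these genes were thus not particular to the libraries labelled anac017.

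Lists of receptors and of all WRKY factors had smaller medians than the SA lists. Of 12 pattern receptor genes 0 passed, with a median of 0.26. The kinase BIR1 differed by 0.81 ± 0.23 (adjusted p = 0.0796, and 0.0466 with the block) and SOBIR1 by 0.94 (0.109), while the flagellin receptor FLS2 differed by -0.57 (0.186). The chitin receptor LYK5 was at 3.31, 3.27 and 3.09 in those labelled anac017, against 2.43, 2.91 and 2.62 in wild type (0.57 ± 0.18, adjusted p = 0.0925). Of 33 cysteine-rich receptor kinases 1 rose (3.03%, against 1.47% of all genes). It was CRK8, at 2.07, 1.97 and 2.36 in the libraries labelled anac017, against 1.05, 1.25 and 1.03 in wild type (1.03 ± 0.22, adjusted p = 0.0419). CRK14 differed by 0.93 ± 0.23 (0.0612, block 0.0362). The wall-associated kinases WAK3 (1.68 ± 0.60) and WAK1 (0.97 ± 0.35) did not pass. None of 50 WRKY factors passed, at a median of 0.33 over the whole family, with differences up to 1.76 for WRKY51 (adjusted p = 0.136). On the 6 libraries alone 18 were higher and 0 lower, against 10.3% and 11.2% of all genes. With the block 7 passed, all higher (4.11% of all genes were higher there). Among them WRKY18 was at 4.96, 5.05 and 4.94 in anac017-labelled libraries, against 3.53, 3.68 and 3.93 in wild type (1.27 ± 0.32, adjusted p = 0.0653, block 0.0454), and WRKY61 differed by 1.11 ± 0.28 (0.0653, block 0.0445). The 10 tested JAZ repressors of jasmonate signalling had a median of 0.03 and 0 passed, JAZ5 at 0.62 ± 0.21 and JAZ11 at 0.21 ± 0.09 coming closest.

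**Figure D4:**
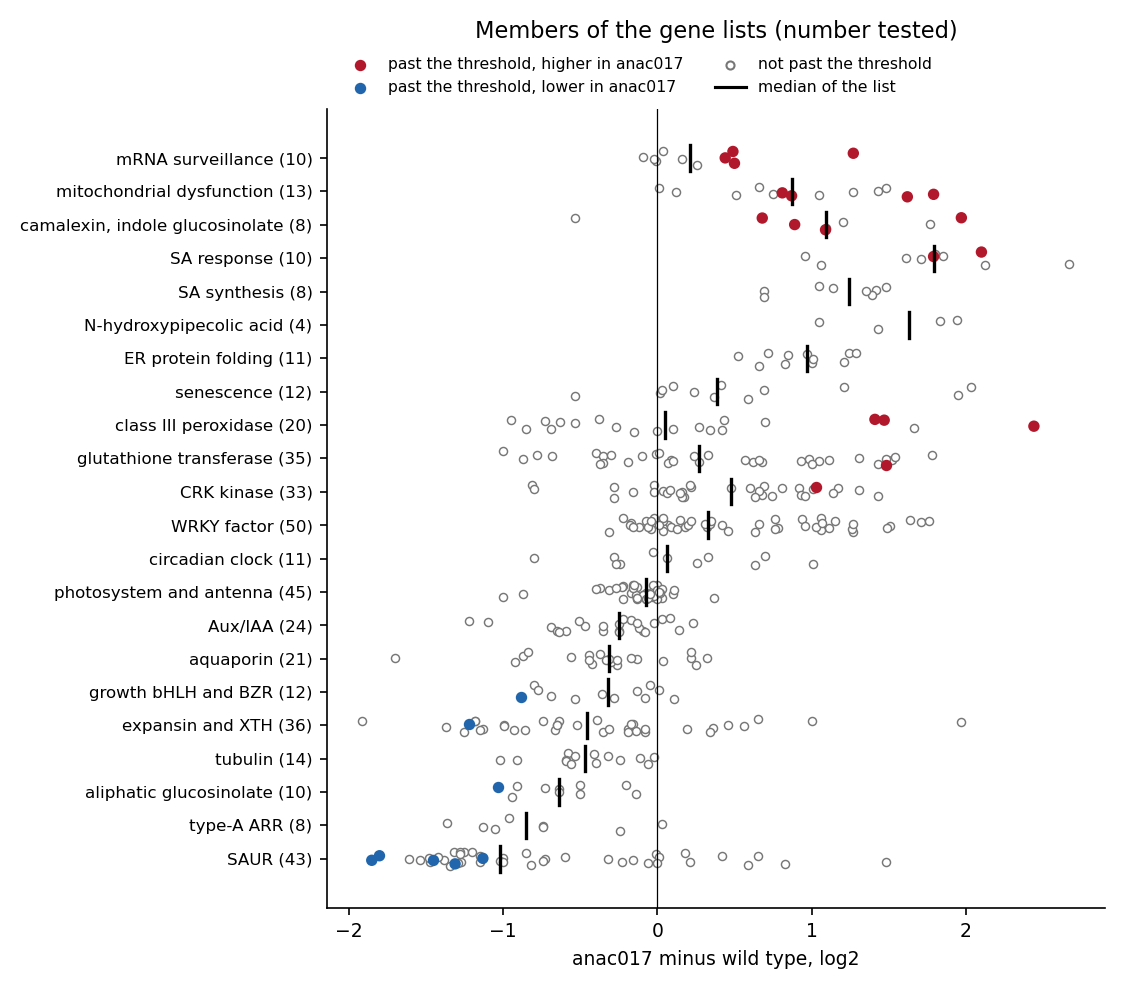
Difference between the libraries labelled anac017 and wild type (horizontal axis, log2) for each tested member of 22 gene lists, with the number tested in brackets. Filled points passed the threshold (red higher, blue lower), open points did not, and the black bar is the list's median. SA and indole lists lie to the right of 0 and SAUR, type-A ARR and aliphatic glucosinolate lists to the left.

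The branches of glucosinolate synthesis, which make sulphur-rich defence compounds from different amino acids, had differences of opposite sign. On the branch from tryptophan, shared with the antimicrobial camalexin, 4 of 8 genes rose (50%, against 1.47% of all genes) and 0 fell. The median was 1.09, and leaving out single libraries gave 0 to 6. CYP79B2, the entry enzyme, was at 6.28, 6.25 and 6.27 in the libraries labelled anac017, against 4.43, 4.31 and 4.14 in wild type (1.97 ± 0.35, adjusted p = 0.0227). It lay at 4.94 to 6.84 in the libraries labelled anac090. Its partner CYP79B3 was at 6.32, 6.23 and 5.94 in anac017-labelled libraries, against 5.63, 5.51 and 5.28 in wild type (0.68 ± 0.15, adjusted p = 0.0496). CYP83B1, the next enzyme, rose by 0.89 ± 0.17 (adjusted p = 0.0286), and MYB51, the factor of the indole branch, by 1.09 ± 0.17 (0.0145). PAD3, the last enzyme of camalexin, was at 4.48, 4.51 and 4.54 in anac017-labelled libraries, against 2.59, 2.63 and 3.00 in wild type (1.77 ± 0.54, adjusted p = 0.0913, and 0.001 on the 6 libraries alone). MYB34, a second factor of the indole branch, had a negative difference of -0.53 ± 0.32 (adjusted p = 0.311).

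On the branch from methionine, 1 of 10 genes fell (10%, against 0.612% of all genes) and 0 rose. The median was -0.64 and all 10 differences were below 0. MYB76, a factor of this branch, was at 1.95, 1.72 and 1.74 in the libraries labelled anac017, against 2.90, 2.80 and 2.81 in wild type (-1.03 ± 0.22, adjusted p = 0.0414). CYP79F1 (-0.91 ± 0.30, adjusted p = 0.108) and CYP79F2 (-0.73 ± 0.20, 0.0782), the entry enzymes, and the oxygenase FMOGS-OX1 (-0.94 ± 0.32, 0.119) passed on the 6 libraries alone (0.00750, 0.0129 and 0.00368). In that fit 8 of the 10 were lower, against 11.2% of all genes. MYB28, the main factor of the branch, differed by -0.20 ± 0.21.

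Among enzymes of oxidants, 3 of 20 class III peroxidases rose (15%, against 1.47% of all genes) and 0 fell, at a median of 0.05. PER71 was at 4.87, 6.27 and 5.22 in the libraries labelled anac017, against 3.63, 2.35 and 3.06 in wild type (2.44 ± 0.45, adjusted p = 0.0255). PER34, which makes hydrogen peroxide at the cell wall in defence, was at 8.03, 8.43 and 8.30 in anac017-labelled libraries, against 6.80, 6.82 and 6.73 in wild type (1.47 ± 0.31, adjusted p = 0.0375). It lay at 7.75 to 9.25 in the libraries labelled anac090. PER21 rose by 1.41 ± 0.31 (0.0448), and replicate 1 was its highest library in both groups. Of 35 glutathione transferases 1 rose (2.86%, against 1.47% of all genes), GSTF3 (1.48 ± 0.25, adjusted p = 0.0196). It is close in sequence to GSTF2 (1.11 ± 0.30, 0.0725), and reads of the pair may be split between them.

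Neither the chaperones and foldases of the endoplasmic reticulum nor the senescence genes gave a call. All 11 folding genes had differences above 0, from 0.52 to 1.29, with a median of 0.97. Of these 0 passed, 2 with the block (4.11% of all genes were higher there) and 9 on the 6 libraries alone (10.3%). The chaperone BIP1 was at 6.79, 7.53 and 7.54 in the libraries labelled anac017, against 5.92, 6.59 and 6.43 in wild type (0.97 ± 0.41, adjusted p = 0.177), with replicate 1 lowest in both groups. PDIL1-1 (1.24 ± 0.34, adjusted p = 0.0776, block 0.0413), a disulfide isomerase, and CRT3 (1.21 ± 0.39, 0.1, block 0.0457), a calreticulin that folds immune receptors, were the 2 with the block. The 12 senescence genes ranged from -0.53 for CIPK5 to 2.03 for SAG13, at a median of 0.39. The chlorophyll breakdown gene SGR1 differed by 0.10 ± 0.20 and the vacuolar protease AALP by 0.24 ± 0.13. SAG21 differed by 1.95 ± 0.46 (adjusted p = 0.0558, block 0.0195) and the glutamine synthetase GLN1;1 by 1.21 ± 0.32 (0.0725, block 0.0387). ORE1 (0.02 ± 0.34) and NAP (0.03 ± 0.34), the NAC factors that drive leaf senescence, had overlapping groups. SAG14, a blue copper protein outside this list, was at 7.30, 6.45 and 7.13 in anac017-labelled libraries, against 4.69, 3.91 and 4.82 in wild type (2.48 ± 0.45, adjusted p = 0.0241). It lay at 5.74 to 6.56 in the libraries labelled anac082 and 6.92 to 8.76 in those labelled anac090.

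Most genes of the small auxin-up RNA (SAUR) family stood lower. Their proteins promote cell expansion by keeping active the proton pump of the plasma membrane. Of 80 listed, 43 were tested: 5 fell (11.6%, against 0.612% of all genes), 0 rose, and the median was -1.02. Of the 43 differences 35 were below 0, as were 8955 of the 16817 of all genes. With the block 18 were lower and 1 higher (3.05% and 4.11% of all genes). On the 6 libraries alone 27 were lower and 4 higher (11.2% and 10.3% of all genes). Leaving out single libraries gave 0 to 23 lower. SAUR15 (chromosome 4, 18126171 to 18126680) was at 3.27, 3.47 and 3.42 in the libraries labelled anac017, against 4.75, 4.65 and 5.11 in wild type (-1.45 ± 0.24, adjusted p = 0.0168). Its neighbours AT4G38860, at 5.99, 6.32 and 6.20 in anac017-labelled libraries, against 7.35, 7.49 and 7.59 in wild type (-1.31 ± 0.23, 0.0197), and AT4G38840, at 5.28, 5.47 and 5.59 in anac017-labelled libraries, against 6.41, 6.53 and 6.79 in wild type (-1.13 ± 0.20, 0.0209), fell with it within 6083 bases. SAUR68 was at 1.30, 2.06 and 1.06 in anac017-labelled libraries, against 3.00, 3.47 and 3.34 in wild type (-1.80 ± 0.36, adjusted p = 0.0326). AT2G21220 was listed at 0 in all 3 libraries labelled anac017, against 2.37, 1.00 and 2.17 in wild type (adjusted p = 0.0302), and at 1.14 to 2.42 in the other 2 lines. In the array of SAUR19 to SAUR24 on chromosome 5, all 6 tested members passed with the block, led by SAUR20 at 2.60, 3.59 and 2.72 in anac017-labelled libraries, against 4.26, 4.85 and 4.64 in wild type (-1.61 ± 0.41, adjusted p = 0.0669, block 0.0313). In the libraries labelled anac090, SAUR15 (3.44 to 4.11), SAUR68 (0.78 to 2.32) and SAUR20 (1.93 to 3.71) also lay below wild type. There AT4G38860 (6.37 to 7.44) and AT4G38840 (5.61 to 6.35) stayed above the libraries labelled anac017. SAUR genes of an array are near copies, and their reads may be split.

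**Figure D5:**
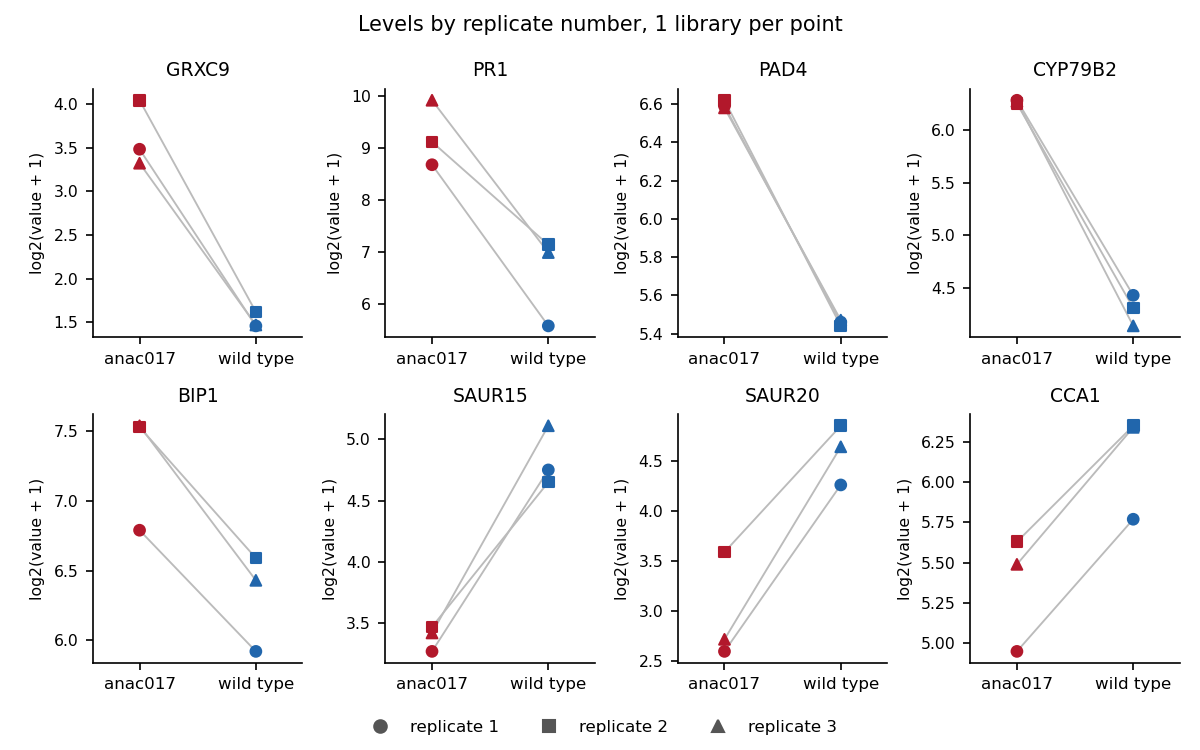
Levels (vertical axes, log2, each gene on its own scale) in libraries labelled anac017 (red, left) and wild type (blue, right), with lines joining libraries of the same replicate number. All 8 genes have separate groups, and for BIP1 and CCA1 replicate 1 is the lowest library of both groups.

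Other gene families of growth gave few calls. Of 36 expansins and wall-loosening XTH enzymes 1 fell (2.78%, against 0.612% of all genes), at a list median of -0.45. It was EXPA4, at 1.91, 2.98 and 2.61 in the libraries labelled anac017, against 3.43, 3.74 and 3.98 in wild type (-1.22 ± 0.25, adjusted p = 0.0360). EXPA6 was at -1.18 ± 0.27 (0.0531, block 0.0387). All 14 tubulin genes had differences below 0 (median -0.47), of which 0 passed and 3 with the block (3.05% of all genes were lower there). They were led by TUB3 at 4.10, 4.16 and 3.99 in anac017-labelled libraries, against 5.01, 5.22 and 5.06 in wild type (-1.02 ± 0.25, adjusted p = 0.0602, block 0.0376). TUA2 (-0.53 ± 0.17, 0.101, block 0.0423) and TUA4 (-0.41 ± 0.11, 0.0719, block 0.0481) were the others. The Aux/IAA list of 24 genes holds repressors of auxin signalling and also the auxin response factors ARF5, ARF7 and ARF19. None of the 24 (median -0.25) and none of 21 aquaporin water channels (median -0.31) passed. IAA14 (-1.22 ± 0.43, adjusted p = 0.124) and IAA29 (-1.10 ± 0.31, 0.0791) passed with the block (0.0183 and 0.0221), and the channels NIP6;1 (-0.84 ± 0.26, 0.0960) and PIP1B (-0.30 ± 0.12, 0.155) did not. Among aquaporins PIP2-3 was lower with the block (-0.44 ± 0.26, 0.300, block 0.0478), with overlapping groups. Of 12 factors of brassinosteroid and light-driven growth 1 fell (8.33%, against 0.612% of all genes). It was BEE2, at 5.0, 4.86 and 4.85 in anac017-labelled libraries, against 5.80, 5.78 and 5.79 in wild type (-0.88 ± 0.17, adjusted p = 0.0277). HBI1 differed by -0.53 ± 0.17 (0.0999), BES1 by -0.77 ± 0.26 (0.115, block 0.0487), PIF4 by -0.13 ± 0.18 and PIF5 by -0.28 ± 0.17. The type-A response regulators, which damp cytokinin signalling, had a median of -0.85. Of 8 tested 0 passed, and 3 with the block (3.05% of all genes were lower there). ARR9 was at 3.61, 3.59 and 3.43 in anac017-labelled libraries, against 4.32, 4.45 and 4.75 in wild type (-0.96 ± 0.22, adjusted p = 0.0525, block 0.0376), ARR15 differed by -1.05 ± 0.34 (0.102) and ARR4 by 0.03 ± 0.12.

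The clock genes, which set the daily rhythm of many growth genes, varied between replicate numbers as well as groups. None of 11 passed (median 0.06), and with the block CCA1, a morning gene, was lower and PRR5, TOC1 and ELF4, evening genes, were higher. CCA1 was at 4.95, 5.63 and 5.49 in the libraries labelled anac017, against 5.77, 6.35 and 6.34 in wild type (-0.80 ± 0.24, adjusted p = 0.0943, and 0.00133 with the block). TOC1 was at 4.79, 3.83 and 4.03 in anac017-labelled libraries, against 4.05, 3.25 and 3.47 in wild type (0.63 ± 0.29, adjusted p = 0.200, block 0.0253). An index of morning minus evening genes was 0.40, 2.13 and 1.76 in the libraries labelled anac017 and 1.5, 3.22 and 2.94 in wild type. Time of day at harvest is not stated, and its part in the SAUR and growth results was not tested.

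Genes of photosynthesis and of cytosolic ribosomes gave no call. The 45 photosystem and antenna genes had a median of -0.07, and LHCA6 was at 5.46, 5.78 and 5.53 in the libraries labelled anac017, against 6.64, 6.48 and 6.65 in wild type (-1.0 ± 0.41, adjusted p = 0.165, and 0.00234 on the 6 libraries alone). LHCA5 differed by -0.37 ± 0.16. The 197 ribosomal protein genes had a median of 0.03, with RPS16B at 0.50 ± 0.15 (adjusted p = 0.0878) and RPS17C at -0.40 ± 0.11 (0.0776).

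Markers of leaf cell types were read in the same libraries. The 4 mesophyll markers had a median of 0.02 and 0 passed, with RBCS1A, the small subunit of Rubisco, at 11.01, 11.04 and 11.21 in the libraries labelled anac017 and 11.01, 10.95 and 11.12 in wild type. HCEF1, a chloroplast fructose bisphosphatase, differed by -0.40 ± 0.21 (0.255). The 7 guard cell markers had a median of -0.10, with 3 differences above 0, up to 0.26, and 4 below. None passed over all 12 libraries. FAMA (-0.53 ± 0.14, adjusted p = 0.0677, block 0.0475) and HT1 (-0.52 ± 0.17, 0.109, block 0.0375) were lower with the block. All 6 tested epidermis markers had differences below 0 (median -0.43) and 0 passed, with PDF2 at -0.55 ± 0.25 (0.201) and KCS10 at -0.76 ± 0.36 (0.214). The 6 tested vasculature markers had a median of -0.01, with 3 differences above 0 and 3 below. Of these, the sucrose exporter SWEET12 rose, at 6.46, 5.78 and 6.01 in anac017-labelled libraries, against 4.99, 3.64 and 3.89 in wild type (1.91 ± 0.36, adjusted p = 0.0286). Its partner SWEET11 passed with the block (0.80 ± 0.23, 0.0815, block 0.0140). In the libraries labelled anac082, SWEET12 lay at 5.26 to 5.77 and SWEET11 at 7.61 to 7.99. In those labelled anac090, SWEET12 lay at 4.89 to 5.96 and SWEET11 at 7.40 to 8.26. The phloem sucrose carrier SUC2 differed by 0.00 ± 0.14, the xylem proteases XCP1 and XCP2 had overlapping groups, and APL, a phloem identity factor, was lower in all 3 libraries labelled anac017 without passing (-0.22 ± 0.14, adjusted p = 0.349). The 4 flower, 4 cell division and 3 root markers did not reach the filter. Summed on the linear scale, the epidermis markers ranged from 346 to 559 in the libraries labelled anac017 and 463 to 746 in wild type, with 1 of 7 at 0 in all 6 libraries, and the vasculature markers from 548 to 652 in the libraries labelled anac017 and 372 to 495 in wild type, with 0 of 7 at 0. In the vasculature list only SWEET11 and SWEET12 had separate groups with the libraries labelled anac017 higher. The part of these cell types in the growth and sugar transport results was not tested.

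The largest rises at levels above the median included enzymes and membrane proteins outside these lists. The beta-galactosidase BGAL4 was at 7.24, 6.42 and 6.59 in the libraries labelled anac017, against 5.32, 5.32 and 5.22 in wild type (1.46 ± 0.30, adjusted p = 0.0369), above all 9 other libraries. EXO70B2, of the exocyst that carries receptors to the plasma membrane, was at 5.43, 5.27 and 5.48 in anac017-labelled libraries, against 4.04, 4.28 and 4.28 in wild type (1.19 ± 0.14, adjusted p = 0.00296, 22 of 22 alternatives). AT4G15260, a UDP-glycosyltransferase, was at 5.16, 5.24 and 5.39 in anac017-labelled libraries, against 4.17, 4.0 and 3.97 in wild type (1.22 ± 0.09, adjusted p = 1.7e-04, 22 of 22 alternatives). AT4G32240, described as an unknown protein, was at 6.95, 6.81 and 6.84 in anac017-labelled libraries, against 5.60, 5.33 and 5.24 in wild type (1.48 ± 0.14, adjusted p = 6.4e-04, 22 of 22 alternatives). For AT4G15260 and AT4G32240 the libraries labelled anac017 stood above all 9 others. For EXO70B2 they did not, as it lay at 5.40 to 5.72 in the libraries labelled anac090. ATL31, a ubiquitin ligase (1.68 ± 0.34), ZAT7, a zinc finger repressor (1.75 ± 0.39), the kinase gene AT1G48210 (1.5 ± 0.31), FLOT1, a flotillin of membrane uptake (1.21 ± 0.26), AT1G65845 (1.46 ± 0.28) and AT1G06002 (1.28 ± 0.25) rose with adjusted p of 0.0302 to 0.0496. For none of the genes from ATL31 to AT1G06002 did the libraries labelled anac017 stand above all 9 others. In those labelled anac090, ZAT7 lay at 5.47 to 6.82, FLOT1 at 6.41 to 7.19 and AT1G65845 at 5.84 to 7.03. In the same libraries AT1G48210 lay at 4.25 to 5.70, ATL31 at 4.22 to 5.20 and AT1G06002 at 3.44 to 4.66. AT1G06002 is described as a possible antisense transcript overlapping another gene. Its reads cannot be told apart from that gene's unless strand was used in counting.

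Only 1 gene was lower in the fit over all 12 libraries and in all 22 alternatives, AT2G23120, a late embryogenesis abundant protein of group 6. It stood at 7.49, 7.33 and 7.35 in the libraries labelled anac017, against 8.30, 7.95 and 8.12 in wild type (-0.73 ± 0.10, adjusted p = 0.00645), and at 8.17 to 8.40 in the other 2 lines. AT4G18280, related to glycine-rich cell wall proteins, was at 3.90, 3.76 and 4.01 in anac017-labelled libraries, against 5.18, 4.88 and 4.97 in wild type (-1.12 ± 0.19, adjusted p = 0.0192). The lectin gene AT5G01090 (-0.88 ± 0.13), the reductase homolog AT1G75280 (-0.86 ± 0.19), the sulfotransferase SOT11 (-0.85 ± 0.19), AT5G67390 (-0.76 ± 0.14), AT3G22104 (-0.68 ± 0.13), AT5G13240 (-0.68 ± 0.11), AT2G34460 (-0.64 ± 0.13), the lipase gene AT3G14220 (-0.64 ± 0.14) and AT2G21385 (-0.61 ± 0.12) fell with adjusted p of 0.0127 to 0.0496.

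Some genes set wild type apart from every other library instead. CYP21-2, a peptidyl-prolyl isomerase with the smallest adjusted p of all genes, was at 3.72, 3.82 and 3.60 in the libraries labelled anac017, against 0.25, 0.00 and 0.19 in wild type (3.57 ± 0.11, adjusted p = 6.2e-08), and at 3.50 to 3.77 in the other 2 lines. It was named after its values were seen. By contrast, 173 of the 248 genes that rose lay above all 9 other libraries, as did 571 of the genes tested, and 31 of the 103 that fell lay below all 9, as did 259 of the genes tested. All called genes stood apart from wild type already, so their larger share is in part built in. The like base is the genes with separate groups, 3191 higher and 3804 lower. These counts describe levels and are not a test against the other lines.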

How the data were processed

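Poly(A) RNA of leaves was made into stranded libraries and sequenced, and reads were handled with CASAVA 1.8.2, TopHat and Cufflinks on TAIR10, per the submitters' processing notes. The authors deposited 1 table of 33726 entries with log2 values of abundance plus a pseudocount of 1, whose distributions are the same in all 12 libraries to within 0.082 when sorted, as quantile normalisation gives. The method of abundance, the depth and the use of strand in counting are not given in the sources used here.

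From these values, 529 entries (1.57%) with no gene identifier were left out, and 16817 genes with a mean of (2 to the power of the value, minus 1) at or above 1 across all 12 columns were tested. Limma 3.58.1 in R 4.3.3 was fitted to all 12 libraries in 4 groups, with a mean-variance trend and Benjamini-Hochberg adjustment over all genes tested, at a threshold of 0.05, two-sided. The procedure was also run on simulated data, drawn independently for each library with 1 spread per gene. Such data hold neither shared deviations of same-numbered libraries nor libraries that stand apart, so the run does not bear on either. Same-numbered libraries labelled anac017 and wild type deviated together (correlations of 0.49, 0.37 and 0.26 over genes), so the replicate number was taken to pair them and a fit with it as a block was added. Other alternatives were the 6 libraries alone, other filters, a pseudocount of 0.1, re-centring, no trend, library weights and each library left out. Genes named are the targeted gene and genes within 10 kb, the 20 largest rises and 15 largest falls past the threshold with groups apart and a mean above the median of tested genes, list members past it (6 at most a list) and otherwise the 2 with the smallest p; further members are given to describe a list. The members, lists and tests were chosen with earlier results of these data known. Sequences, gene classes and exon junctions came from RefSeq TAIR10.1, in which 32454 of 33197 gene identifiers matched, and gene coordinates are those of the authors' table, from 1. A withheld item is not reported here.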

Additional observations from a re-analysis of the deposited data

How the results depend on the processing

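With the replicate number as a block the counts were 691 higher and 513 lower, on the 2 groups only 1731 and 1881, on the 2 groups with the block 2713 and 2974, with library weights 2191 and 2394, and without the 2 libraries that stand apart 1762 and 1888, against 248 and 103. The weights were estimated with a warning that they had not converged. Leaving out 1 library at a time gave 45 to 1410 higher and 3 to 1547 lower. No filter gave 214 and 77, a filter at a mean of 5 gave 253 and 90, a pseudocount of 0.1 gave 263 and 94, re-centring 248 and 102, and no trend 234 and 110. The cause of these shifts was not tested. The ANAC017 difference was 0.81 to 0.91 with 1 library left out, and the call was lost in 5 of 12 such fits, with 1 of the 6 libraries missing in each. Of 65 named calls, 15 to 33 were kept without 1 of the 6 libraries and 42 to 65 without 1 of the other 6. No call took the opposite direction in any alternative, which is of little weight, since groups on separate sides fix the direction beforehand. With the replicate block all 65 named calls still passed, ANAC017 among them (adjusted p = 0.0183), and the named genes that passed with the block alone have that p in the report. Depth is unknown, so no counting error is given, and quantile normalisation hides any change in total RNA.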
